A study of Drosophila melanogaster with 18 samples.

Results

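Genes of the fourth chromosome were followed in ovary RNA of Drosophila melanogaster. All genes that the count table places on chromosome 4 were taken except RpS3A, eIF4G1, pho and ATPsynbeta, which left 108 of the 17611 genes counted and 108 of the 112 on that chromosome. Of the 108 genes, 76 are annotated as protein-coding, 25 as non-coding RNA and 7 as pseudogenes. The 14679 genes of 2L, 2R, 3L and 3R served as background.

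The fourth chromosome is the smallest of the fly's autosomes, and nearly all of its genes lie in chromatin that carries the marks of heterochromatin and is transcribed nonetheless. The methyltransferase Egg, called SETDB1 in mammals, and its partner Wde deposit methylation of histone H3 lysine 9 there, HP1a binds that mark, and the protein Pof, named for painting this chromosome, coats the transcribed genes. Its genes encode several developmental transcription factors, the miRNA silencing factor Gawky, ligands and receptors of the TGF-β, ephrin and semaphorin families, and the giant muscle protein projectin.

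Poly-A RNA of ovaries labelled as stages 1 to 7 was sequenced in 18 libraries from 2 inbred wild-type genotypes, LP (low plasticity) and HP (high plasticity), with 3 libraries in each of 6 groups. LP diapause and HP diapause ovaries came from flies in diapause at 12 °C. LP reproductive and HP reproductive ovaries came from flies that stayed reproductive at 12 °C. LP age-control and HP age-control ovaries came from flies aged 28 days at 25 °C. The labels call the libraries of a group biological replicates. No source used here gave the age of the cold-kept flies or how many flies went into a library. Each genotype is a single line, so a difference between LP and HP is one between these lines, and temperature, age and ovary state cannot be told apart in a comparison with the age controls.

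Total counts were 14352846 to 21343992 per library, and levels are CPM, the counts of a gene scaled to library size by TMM. The 7 germline markers and the 5 follicle-cell markers were detected in all groups. The germline markers took 0.27% to 0.29% of counts in LP diapause ovaries, 0.274% to 0.291% in LP reproductive and 0.223% to 0.242% in LP age-control ovaries, against 0.255% to 0.288%, 0.296% to 0.303% and 0.24% to 0.276% in the same states of HP. These sums hold genes that moved in opposite directions. In HP diapause and HP age controls, nanos averaged 106 and 284 CPM and bam 23.1 and 49.6 CPM. In the same groups orb averaged 1340 and 867 CPM and aub 329 and 220 CPM. The follicle-cell markers took 0.0407% to 0.0438% in LP diapause, 0.0375% to 0.0425% in LP reproductive and 0.0192% to 0.0251% in LP age-control ovaries, against 0.0425% to 0.0476%, 0.0424% to 0.0446% and 0.0288% to 0.0323% in the same states of HP, so that cold and age-control libraries did not overlap in either line. Late eggshell markers moved the other way. The 10 late eggshell genes (10 of 10 tested), which follicle cells express after stage 7, took 0.103% to 0.256% of counts in LP diapause ovaries, 0.281% to 0.435% in LP reproductive and 1.0% to 1.34% in LP age-control ovaries. In HP they took 0.0281% to 0.0371%, 0.103% to 0.183% and 0.486% to 0.869%. Their part in the results below was not tested, and fewer cells of a type and less RNA per cell cannot be told apart in these bulk samples. LP diapause replicate 2, LP age-control replicate 3 and HP age-control replicate 2 stood apart from their groups in overall expression.

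Most protein-coding genes of the chromosome had enough reads in the ovary to be tested. The filter on low counts passed 84 of the 108 genes, of which 71 were protein-coding and 13 non-coding or pseudogenes. Exons of 28 of the 84 overlap another gene, among them Cals with sv, fuss with asRNA:CR44030, zfh2 with Tdg, Asator with CG33941, PMCA with Rnf11 and CG11076 with the excluded ATPsynbeta, all on the opposite strand. Reads from the stretches that such pairs share cannot be told apart unless strand was used in counting. Among protein-coding genes 93.4% passed, against 59.9% of those on the other autosomes. The filter takes counts without regard to length, so a long gene passes it at a lower level per kilobase. The part of gene length in this difference was not tested. The 24 genes not tested had at most 87 counts over all 18 libraries, and 3 of them had none. They include Actbeta, a ligand of the activin type (87 counts in all), the neuronal gene dpr7 (52 counts) and the sodium pump gene JYalpha (15 counts).

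The tested protein-coding genes were long. Their median summed exon length was 4514 bases, against 2103 bases on the other autosomes, their median number of distinct exons was 12 against 5, and their median span on the chromosome was 10578 bases against 2823.5 bases. Per kilobase of exon their median level was below that of the tested protein-coding genes of the other autosomes in each group. It was 9.44 RPKM (TMM-scaled CPM per kilobase of exon) in LP diapause ovaries and 10.1 RPKM in HP diapause ovaries, against 15.8 and 15.5 RPKM on the other autosomes. These medians leave out genes that failed the filter, which passed 93.4% of protein-coding genes here and 59.9% on the other autosomes. They therefore do not compare all genes of the chromosomes. In the other 4 groups the median ranged over 9.26 to 10.5 RPKM, against 15.9 to 18.8 RPKM. The spread among the genes was wide. In LP diapause ovaries 25% of them lay under 0.707 RPKM and 25% over 35.0 RPKM, where the other autosomes had quartiles of 3.83 and 37.9 RPKM.

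The gene with the most reads was gw, whose protein Gawky (GW182 in mammals) binds Argonaute in miRNA silencing, with 8.14% of all counts of the set. Gyf, a partner in translational repression, took 6.97%, the semaphorin receptor gene PlexA 6.33%, the calcium pump gene PMCA 4.91% and the ankyrin gene Ank 4.51%. The first 10 genes together held 48.3%. Per kilobase the highest were CG11076 (143 RPKM in LP diapause ovaries), ND-49, a subunit of respiratory complex I (115 RPKM), and the small GTPase gene Arf4 (109 RPKM).

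The share of all counts that came from the set was smallest in diapause ovaries of both lines. It was 0.596%, 0.597% and 0.593% in LP diapause libraries, 0.615%, 0.602% and 0.607% in LP reproductive libraries and 0.716%, 0.721% and 0.775% in LP age-control libraries. In HP it was 0.587%, 0.554% and 0.565% in diapause, 0.615%, 0.614% and 0.615% in reproductive and 0.731%, 0.652% and 0.763% in age-control libraries. No cold library overlapped an age control of its line. This share was not tested, and over all tested genes of the set the median log2 fold change of diapause against age control was 0.036 in LP and −0.10 in HP, against 0.026 and 0.0023 on the other autosomes.

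The first comparison asks what distinguishes diapause from continued reproduction at the same temperature. No gene of the chromosome was called in either line (edgeR quasi-likelihood test, Benjamini-Hochberg over 9037 genes, adjusted p under 0.05). Of all tested genes 1.45% were called in LP (0.343% higher, 1.11% lower) and 0.852% in HP (0.199% higher, 0.653% lower). At an unadjusted p under 0.05 there were 16 genes of the set in LP and 12 in HP, or 19.0% and 14.3% of those tested, against 16.4% and 16.0% on the other autosomes. The difference between the lines in this effect was called for 0 genes of the set, and for 0.0% of all tested genes. At an unadjusted p under 0.05 it held 5 genes of the set (5.95%), against 4.01% on the other autosomes. DESeq2 called 2 in LP and 2 in HP, where it called 5.29% and 4.31% of all genes with an adjusted p, and 0 for the difference between lines.

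PlexA, a semaphorin receptor gene, had 372, 350.3 and 351 CPM in HP diapause ovaries, against 418, 417 and 437 CPM in HP reproductive ovaries. The groups did not overlap, and the log2 fold change was −0.25 ± 0.064 (SE, edgeR adjusted p = 0.074, 3 libraries each). DESeq2 (adjusted p = 0.015) and the fit with total counts (−0.28) called it. CG31998 had a log2 fold change of −0.29 ± 0.084 in HP (edgeR adjusted p = 0.1) and was also called by DESeq2 (adjusted p = 0.037). The fit to the compared groups called 8.04% of all genes, among them both of these, lgs (−0.20), PlexB (−0.27) and CG11155 (0.34). The fit without the 3 libraries that stood apart called 7.21%, among them both of these, lgs (−0.20), PlexB (−0.27), fuss (−0.66) and MED26 (−0.15).

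In LP most candidates were others, but CG11155 was also among the HP genes above, with a rise in both lines. The line difference in this comparison was called for no gene. Cals, the fly calsyntenin, had 137, 119 and 129 CPM in LP diapause ovaries, against 113, 105 and 108 CPM in LP reproductive ovaries, and the groups did not overlap (0.24 ± 0.065, edgeR adjusted p = 0.065). CG11155 had 9.49, 7.96 and 10.9 CPM against 6.05, 7.45 and 5.36 CPM in the same groups (0.58 ± 0.15, edgeR adjusted p = 0.055). DESeq2 called both (adjusted p = 0.026 and 0.015). The zinc-finger gene dati had 1.25, 3.11 and 1.41 CPM in LP diapause ovaries, where replicate 2 stood high, against 3.59, 5.87 and 2.37 CPM in LP reproductive ovaries (−1.04 ± 0.39, edgeR adjusted p = 0.17). Without LP diapause replicate 2, which stood apart, edgeR called Cals (0.29), CG11155 (0.69) and dati (−1.57), with 2.67% of all genes called. Without the 3 libraries that stood apart it called 9.23% of all genes, among them these 3 and Rad23 (−0.18), ci (0.30), bt (0.73), pan (0.26) and lncRNA:CR46488 (1.0).

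Diapause at 12 °C was then compared with the age controls at 25 °C. Of the 84 tested genes 48 were called in LP (24 higher, 24 lower) and 60 in HP (27 higher, 33 lower), or 57.1% and 71.4%. Over all tested genes 71.9% were called in LP (36.6% higher, 35.3% lower) and 68.6% in HP (34.0% higher, 34.7% lower). Follicle-cell markers were higher and late eggshell markers lower in diapause than in age-control libraries, without overlap in either line, and their part in these changes was not tested. Which genes moved is described by role, with both lines side by side.

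**Figure D1:**
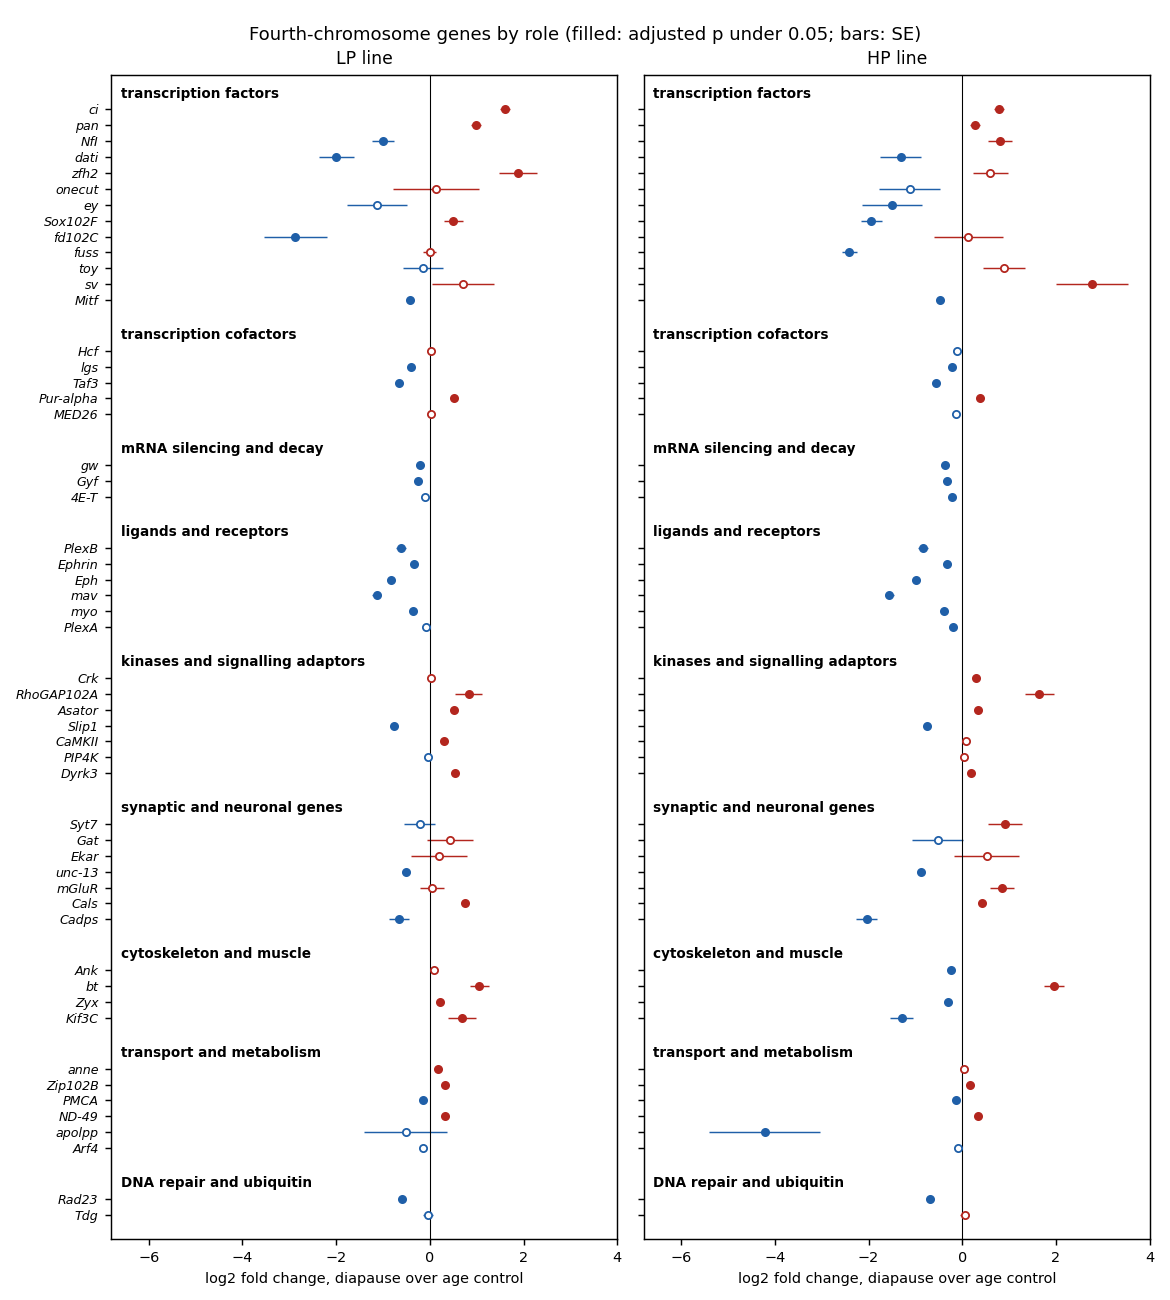
Log2 fold change (with SE) of diapause over age control for the 53 tested chromosome 4 genes with a listed role, LP line left and HP line right, filled where adjusted p was under 0.05. The 6 ligand and receptor genes lie at or below 0 in both lines, and bt and ci lie above 0 in both.

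Genes of secreted ligands and cell-surface receptors were lower in diapause ovaries. Of the 7 listed, 6 were tested: 5 fell in LP and 6 in HP, with a median log2 fold change of −0.48 in LP and −0.61 in HP. The largest change was that of mav, which encodes Maverick, a ligand of the TGF-β family (FBgn0039914, chromosome 4, 623219 to 626031). It had 41.2, 43.4 and 44.2 CPM in LP diapause ovaries, against 91.3, 86.9 and 105 CPM in LP age controls, and 38.3, 31.3 and 28.8 CPM in HP diapause ovaries, against 87, 100.1 and 103 CPM in HP age controls. Every diapause library lay below every age control of its line (−1.14 ± 0.095 in LP, −1.56 ± 0.097 in HP, edgeR adjusted p = 1.4e-09 and 4e-11). A second ligand of that family, myo (myoglianin), fell by a smaller amount, with log2 fold changes of −0.35 in LP and −0.39 in HP (edgeR adjusted p = 7.5e-06 and 2.9e-06).

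The ephrin pair fell together. Eph, the only ephrin receptor kinase of the fly, had 77.5, 79 and 81.5 CPM in LP diapause ovaries, against 133, 139.6 and 152 CPM in LP age controls, and 69.8, 73 and 70.2 CPM in HP diapause ovaries, against 148, 121 and 157 CPM in HP age controls. The groups did not overlap (−0.84 ± 0.072 and −1.0 ± 0.072, edgeR adjusted p = 2e-09 and 2.8e-10). Its ligand gene Ephrin changed less, by −0.34 in LP and −0.32 in HP (edgeR adjusted p = 0.00011 and 0.00027). Of the semaphorin receptors, PlexB fell in both lines (−0.61 in LP, −0.84 in HP, edgeR adjusted p = 2.1e-05 and 3.5e-07), and PlexA was not called in LP, with 399 ± 9.61 CPM in diapause and 419 ± 9.66 CPM in age-control ovaries, and was called as lower in HP, with 358 ± 12.3 CPM and 410.1 ± 47.2 CPM (mean ± SD, n = 3 each). The difference between lines was not called for PlexA.

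Among the 13 transcription factor genes, 4 rose and 4 fell in LP, and 4 rose and 5 fell in HP. The factor of Hedgehog signalling, ci (FBgn0004859, chromosome 4, 47710 to 57041), was higher in diapause ovaries. It had 47.8, 41.9 and 47.5 CPM in LP diapause ovaries, against 16.3, 15.5 and 13.5 CPM in LP age controls, and 54.1, 41.9 and 49.7 CPM in HP diapause ovaries, against 30.3, 24.4 and 29.8 CPM in HP age controls. Diapause and age-control libraries did not overlap in either line (1.6 ± 0.11 and 0.79 ± 0.10, edgeR adjusted p = 6.9e-11 and 1.2e-06). One end of ci overlaps asRNA:CR43957 (56497 to 63124) on the other strand. Whether reads were counted by strand was not stated, so reads from that shared stretch cannot be told apart.

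The factor of Wnt signalling, pan (TCF), rose in LP, with 56.5 ± 2.93 CPM in diapause and 28.6 ± 3.83 CPM in age-control ovaries (mean ± SD, n = 3 each, 0.98 ± 0.10, edgeR adjusted p = 2.5e-08). In HP its change was 0.27 (edgeR adjusted p = 0.021), a call lost without HP diapause replicate 1 (0.19) or HP age-control replicate 2 (0.16) and with total counts in place of TMM (0.12). The gene lgs, whose product Legless links Armadillo to the Wnt coactivators, went the other way and fell in both lines (−0.40 in LP, −0.22 in HP, edgeR adjusted p = 2.3e-05 and 0.007). Mitf, a regulator of lysosomal genes, also fell in both (−0.42 and −0.47, edgeR adjusted p = 8.8e-07 and 2.4e-07).

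Genes of eye development were close to the detection limit. The Pax6 genes ey and toy had means of 0.346 and 0.674 CPM in LP diapause ovaries and 0.36 and 0.808 CPM in HP diapause ovaries, against 0.773 and 0.748 CPM in LP age controls and 1.06 and 0.436 CPM in HP age controls. Only the fall of ey in HP passed (−1.5, edgeR adjusted p = 0.043), and it was lost without HP diapause replicate 1 (−1.09) or 2 (−1.28) and without HP age-control replicate 2 (−1.38) or 3 (−1.33). Without HP diapause replicate 3 the value was −2.63. The homeodomain gene zfh2 rose in LP, with 1.14, 0.981 and 1.71 CPM in diapause and 0.23, 0.504 and 0.289 CPM in age-control libraries (1.88 ± 0.41, edgeR adjusted p = 0.00039), and was not called in HP (1.32, 1.1 and 1.6 CPM against 0.906, 0.735 and 1.03 CPM). Its line difference was not called (1.29 ± 0.56, edgeR adjusted p = 0.12). In reproductive against age control zfh2 was called higher in both lines (1.64 in LP, 1.22 in HP), and toy in HP (1.27). There ey was called lower in HP (−1.51). That call was lost without HP reproductive replicate 1 (−1.78) or 2 (−0.96). It was also lost without HP age-control replicate 2 (−1.39) or 3 (−1.34) and with no filter (−1.51).

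Of the 3 genes of mRNA silencing and decay, 2 fell in LP and 3 in HP, by small amounts. Gyf had log2 fold changes of −0.26 in LP and −0.33 in HP, with 408, 399.6 and 420.4 CPM in LP diapause and 487, 476 and 508 CPM in LP age-control ovaries, and 419, 377 and 404 CPM in HP diapause and 516, 450.4 and 543 CPM in HP age-control ovaries (edgeR adjusted p = 0.00069 in LP and 6.8e-05 in HP). The value of gw was −0.21 in LP (edgeR adjusted p = 0.028) and −0.36 in HP (adjusted p = 0.00051). The LP call of gw was lost without LP diapause replicate 1 (−0.21) or 2 (−0.19) or LP age-control replicate 3 (−0.15). The eIF4E partner gene 4E-T fell in HP (−0.21, edgeR adjusted p = 0.0059) and averaged 154 ± 7.0 CPM in LP diapause and 165 ± 6.0 CPM in LP age-control ovaries, which was not called.

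Of the 5 transcription cofactor genes, 1 rose and 2 fell in each line. The gene that rose was Pur-alpha (0.51 in LP and 0.38 in HP, edgeR adjusted p = 7.2e-08 and 6e-06), and those that fell were lgs and Taf3, a subunit of TFIID (−0.65 and −0.56, edgeR adjusted p = 9e-08 and 8.2e-07). Hcf, the host cell factor gene, averaged 215 ± 4.5 CPM in LP diapause and 211 ± 10.5 CPM in LP age-control ovaries, and 196 ± 9.4 CPM in HP diapause and 212 ± 23.1 CPM in HP age-control ovaries (mean ± SD, n = 3 each, not called). The repair and ubiquitin receptor gene Rad23 fell in both lines, with 175, 194 and 170.3 CPM in LP diapause and 260.1, 257 and 293 CPM in LP age-control ovaries (−0.59 ± 0.060 in LP and −0.70 ± 0.061 in HP, edgeR adjusted p = 2.8e-08 and 3.7e-09).

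Of the 7 kinase and adaptor genes, 4 rose and 1 fell in each line. Asator, a kinase of the tau-tubulin kinase family, rose in both (0.51 and 0.33, edgeR adjusted p = 8.7e-07 and 0.00019), as did the kinase gene Dyrk3 (0.53 and 0.19, edgeR adjusted p = 2.7e-08 and 0.0047), whose HP call was lost with total counts (0.042). The gene that fell was Slip1, named for its binding to the Slowpoke channel (−0.77 and −0.75, edgeR adjusted p = 5.2e-10 and 1.4e-09). The adaptor gene Crk rose in HP (0.29, edgeR adjusted p = 0.00043) with 115 ± 4.66 CPM in LP diapause and 114 ± 1.04 CPM in LP age-control ovaries, not called. CaMKII rose in LP (0.30, edgeR adjusted p = 4.1e-05), a call lost with total counts (0.076), and was not called in HP (154 ± 11.4 CPM in diapause and 146 ± 3.38 CPM in age-control ovaries).

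The 7 genes best known from synapses did not share a direction: 1 rose and 2 fell in LP, and 3 rose and 2 fell in HP. Cals rose in both lines (0.75 and 0.43, edgeR adjusted p = 2.8e-09 and 7.7e-06), while unc-13 fell in both (−0.51 and −0.89, edgeR adjusted p = 9.1e-06 and 6.4e-09). Cadps, whose product primes dense-core vesicles, had 3.63, 3.49 and 4.64 CPM in LP diapause ovaries, against 5.43, 6.65 and 6.49 CPM in LP age controls (−0.66 ± 0.21, edgeR adjusted p = 0.009). In HP it had 3.53, 1.47 and 2.56 CPM in diapause and 11, 9.6 and 11 CPM in age-control libraries (−2.04 ± 0.22, edgeR adjusted p = 8.8e-08). The groups did not overlap in either line, and the LP call was lost without the 3 libraries that stood apart (−0.55). Neuron markers stayed near 0: the 5 markers (4 tested) summed to 0.000321% to 0.000644% of counts over all libraries, with Syt1 at 0 in LP diapause and HP age-control libraries.

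The muscle gene bt, which encodes projectin of the sarcomere (FBgn0005666, chromosome 4, 724400 to 776474), was higher in diapause ovaries of both lines. It had 108, 91.6 and 126 CPM in LP diapause ovaries, against 50.8, 45.3 and 59.8 CPM in LP age controls, and 147, 114 and 142 CPM in HP diapause ovaries, against 37, 23.2 and 43.9 CPM in HP age controls. The groups did not overlap (1.06 ± 0.20 and 1.95 ± 0.21, edgeR adjusted p = 0.00029 and 1.2e-06). Markers of the ovary's muscle sheath moved with it: 10 of 10 were tested, and they summed to 0.0967% to 0.125% of counts in LP diapause, 0.0544% to 0.0779% in LP age-control, 0.12% to 0.135% in HP diapause and 0.0178% to 0.028% in HP age-control libraries. Their part in the change of bt was not tested. CG33521 and CG1674 rose in HP (1.23 and 1.46, edgeR adjusted p = 3.6e-05 and 5.2e-06) and were not called in LP.

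Of 6 tested genes of transport and metabolism, 3 rose and 1 fell in LP, and 2 rose and 2 fell in HP. ND-49 rose in both lines (0.33 and 0.33, edgeR adjusted p = 0.00013 and 0.00014), and in LP the call was lost with total counts (0.10). The value of PMCA was −0.15 in LP and −0.14 in HP (edgeR adjusted p = 0.024 and 0.043). The LP call of PMCA was lost without LP diapause replicate 3 (−0.14) or LP age-control replicate 1 (−0.14). Its HP call was lost without HP diapause replicate 2 (−0.097) or 3 (−0.16) or HP age-control replicate 1 (−0.14) or 3 (−0.10) and with DESeq2 (−0.13).

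The gene apolpp, which encodes the apolipoprotein of the lipid carrier that the fat body secretes, scattered in LP, with 1.4, 38.3 and 6.97 CPM in LP diapause and 17.7, 13.5 and 35.4 CPM in LP age-control ovaries. It was not called there (−0.51 ± 0.89, edgeR adjusted p = 0.62), and leaving out LP diapause replicate 2 gave −2.45, whereas leaving out replicate 1 gave 0.023. Its fall in HP was the largest of the set, with 1.32, 1.55 and 1.71 CPM in HP diapause ovaries, against 29, 28.1 and 28.2 CPM in HP age controls (−4.21 ± 1.18, edgeR adjusted p = 0.0067). The difference between lines was not called for apolpp (3.70 ± 1.51, edgeR adjusted p = 0.11). The 5 fat-body markers, of which 0 passed the filter, summed to at most 9.42e-05% of counts in a library, with 1 of 5 at 0 in LP diapause, 1 in LP age-control, 1 in HP diapause and 2 in HP age-control libraries. Whether these 5 genes mark adult fat body was not checked. The part of fat body in the values of apolpp was not tested.

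Reproductive ovaries at 12 °C were compared with the same age controls. This comparison holds no diapause libraries, but temperature, age and ovary state cannot be told apart in it. The age-control libraries are shared with the comparison above, so the values of the 2 comparisons are not independent. In LP 47 genes of the set were called (19 higher, 28 lower), where 67.6% of all tested genes were called (33.9% higher, 33.7% lower), and in HP 55 (24 higher, 31 lower), where 65.3% were (32.2% higher, 33.1% lower). These are 56.0% and 65.5% of the genes tested. Side by side, the log2 fold changes of reproductive and of diapause ovaries over age controls were −1.03 and −1.14 for mav in LP, −1.46 and −1.56 for mav in HP, 1.36 and 1.6 for ci in LP, and 0.73 and 0.79 for ci in HP. For bt they were 1.83 and 1.95 in HP, both called, and in LP reproductive ovaries bt had 57.2, 74.9 and 78.8 CPM, below every LP diapause library and overlapping the LP age controls, and was not called.

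Of the ligand and receptor genes, 5 of 6 fell in each line in reproductive ovaries, with a median of −0.46 in LP and −0.49 in HP. Eph had log2 fold changes of −0.97 in LP and −0.87 in HP (edgeR adjusted p = 4e-10 and 2.7e-09), and PlexB of −0.55 and −0.57 (edgeR adjusted p = 8.4e-05 and 4.4e-05). Rad23 fell as well (−0.47 and −0.58, edgeR adjusted p = 9.2e-07 and 6.1e-08). Of the silencing genes Gyf fell in both lines (−0.21 and −0.24, edgeR adjusted p = 0.0044 and 0.0015).

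Changes against the age controls differed between the lines for many genes of the chromosome. The difference between lines (LP minus HP, an interaction term) was called for 23 of 84 genes in diapause against age control, 15 with a positive and 8 with a negative difference, or 27.4%, where 18.4% of all tested genes were called (11.1% and 7.26%). In reproductive against age control it was called for 18 genes (10 and 8), or 21.4%, where 16.6% of all tested genes were called (9.69% and 6.92%). The age controls are again shared between these 2 counts. Late eggshell markers took 1.0% to 1.34% of counts in LP age controls, against 0.486% to 0.869% in HP age controls, and muscle markers 0.0544% to 0.0779%, against 0.0178% to 0.028%; their part in the line differences was not tested. LP and HP share no library, so their values can be set against each other. Of the 40 genes called in both lines in diapause against age control, which are 83.3% of the LP calls and 66.7% of the HP calls, 14 rose in both, 20 fell in both and 6 moved in opposite directions. The 6 opposite genes are 15% of the 40, against 2.56% of the 4252 genes of the other autosomes called in both lines. Of the 6, 4 lost a call in at least 1 other fit, Sox102F, Kif3C and Zyx in LP and CG31999 in both lines, as given with each gene. In reproductive against age control 2 of the 34 genes called in both lines, Sox102F and CG11155, moved in opposite directions, or 5.88%, against 3.33% of 3930 genes on the other autosomes.

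Across genes, Pearson's r between the LP and HP log2 fold changes of diapause over age control was 0.404 over the 84 genes and 0.727 over the 7332 tested genes of the other autosomes. Among genes with a mean of at least 5 CPM it was 0.462 over 52 genes, against 0.883 over 5533 genes. For reproductive over age control it was 0.436 over 52 genes, against 0.802. The 52 genes include apolpp, whose diapause values lay far apart (−0.51 in LP and −4.21 in HP). Its LP value ranged over −2.45 to 0.023 when 1 library was left out, and its weight in r was not tested. The values of r describe spread across genes, which are not independent replicates, and were not tested.

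**Figure D2:**
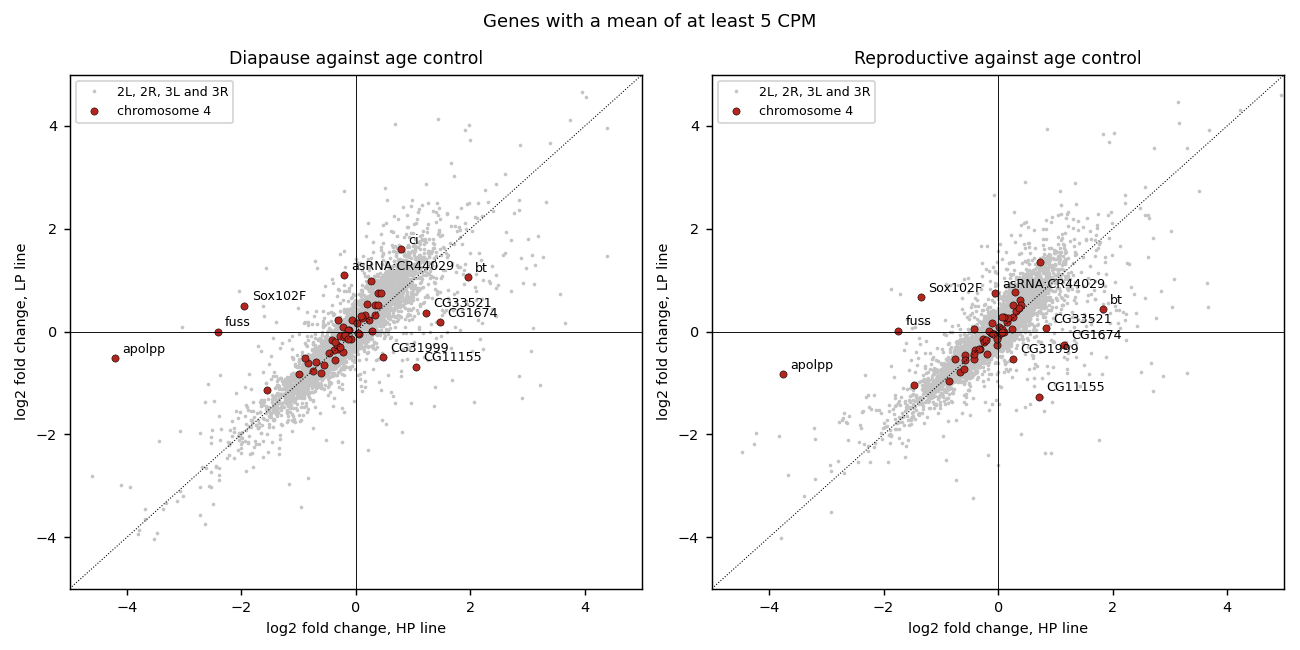
Log2 fold change over age controls in the HP line (x axis) and the LP line (y axis) for diapause (left) and reproductive ovaries (right), genes with a mean of at least 5 CPM. The 52 chromosome 4 genes (red) include several far from the dotted line of equality, among them fuss and Sox102F at the left and CG11155 and CG1674 at the right, while the genes of 2L, 2R, 3L and 3R (grey) lie mostly along it.

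Sox102F, a SoxD-type transcription factor gene (FBgn0039938, chromosome 4, 800436 to 834393), showed the largest difference toward LP. It had 7.78, 6.7 and 6.29 CPM in LP diapause, 8.99, 7.6 and 6.7 CPM in LP reproductive and 5.06, 3.9 and 5.7 CPM in LP age-control ovaries. In HP it had 1.79, 1.84 and 1.54 CPM in diapause, 2.07, 3.05 and 2.66 CPM in reproductive and 5.67, 5.7 and 8.58 CPM in age-control ovaries. The HP cold libraries were below all others, and in LP the diapause libraries lay above the age controls. The change was 0.50 ± 0.20 in LP (edgeR adjusted p = 0.027) and −1.95 ± 0.22 in HP (adjusted p = 1.7e-07), and the difference between lines was 2.45 ± 0.30 (adjusted p = 9.2e-06). The LP call was lost without LP diapause replicate 1 (0.40) or LP age-control replicate 2 (0.35) and with total counts (0.27), and the difference between lines kept its call whichever library was left out.

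The gene fuss, of the Ski and Sno family of transcriptional corepressors (FBgn0039932, chromosome 4, 962341 to 978489), showed a change in HP. It had 8.25, 7.85 and 7.09 CPM in LP diapause, 8.03, 7.4 and 7.99 CPM in LP reproductive and 8.75, 6.6 and 7.85 CPM in LP age-control ovaries. In HP it had 1.62, 2.13 and 1.99 CPM in diapause, 3.21, 2.91 and 2.96 CPM in reproductive and 11.4, 8.96 and 10.2 CPM in age-control ovaries. All 6 HP cold libraries were below the other 12. The LP change was not called, the HP change was −2.41 ± 0.16 (edgeR adjusted p = 1.1e-10), and the lines differed by 2.41 ± 0.21 (adjusted p = 2.4e-07).

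Kif3C, a kinesin motor gene, was low in every LP library. It had 1.25, 1.25 and 1.47 CPM in LP diapause, 1.08, 0.868 and 0.825 CPM in LP reproductive and 0.829, 1.19 and 0.455 CPM in LP age-control ovaries. In HP it had 3.35, 2.65 and 3.7 CPM in diapause, 2.34, 2.13 and 3.25 CPM in reproductive and 7.34, 7.63 and 8.95 CPM in age-control ovaries. No LP library reached an HP library. The HP level fell in diapause (−1.29 ± 0.25, edgeR adjusted p = 9.4e-05), and the lines differed by 1.98 ± 0.39 (adjusted p = 0.0012), a call that held whichever library was left out. The LP change was barely past the threshold (0.68 ± 0.30, adjusted p = 0.048). That call was lost without LP diapause replicate 1 (0.72), 2 (0.72) or 3 (0.60), without LP age-control replicate 1 (0.69) or 3 (0.38), with DESeq2 (0.68) and with total counts (0.46).

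NfI, the nuclear factor I gene (FBgn0042696, chromosome 4, 268175 to 276369), differed the other way. It had 3.37, 2.18 and 3.12 CPM in LP diapause, 1.5, 2.19 and 1.65 CPM in LP reproductive and 5.8, 5.41 and 6.24 CPM in LP age-control ovaries. HP libraries had 2.69, 2.06 and 2.34 CPM in diapause, 1.58, 1.89 and 2.54 CPM in reproductive and 1.72, 1.1 and 1.26 CPM in age-control ovaries. The LP age controls stood above all other libraries. The change of diapause over age control was −1.01 ± 0.23 in LP and 0.80 ± 0.26 in HP (edgeR adjusted p = 0.00067 and 0.0099), and the difference was −1.81 ± 0.35 (adjusted p = 0.001).

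CG11155 (FBgn0039927, chromosome 4, 1126602 to 1137919) crossed over between the lines. It had 9.49, 7.96 and 10.9 CPM in LP diapause, 6.05, 7.45 and 5.36 CPM in LP reproductive and 13.3, 17 and 15.2 CPM in LP age-control ovaries. HP libraries had 21.9, 18.5 and 19.8 CPM in diapause, 15, 17 and 15.4 CPM in reproductive and 8.96, 8.82 and 11.3 CPM in age-control ovaries. Diapause was below the age controls in LP and above them in HP, without overlap (−0.68 ± 0.14 and 1.05 ± 0.14, edgeR adjusted p = 0.0002 and 1.2e-06). The difference was −1.73 ± 0.20 in diapause and −1.97 ± 0.20 in reproductive ovaries (edgeR adjusted p = 4.4e-06 and 1.3e-06). One end of it overlaps CG32017 (1137830 to 1162158) on the other strand, a gene that fell in both lines (−1.19 and −1.14, edgeR adjusted p = 6.1e-05 and 0.0004). Only reads from that short shared stretch cannot be told apart if strand was not used.

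The remaining 2 genes with opposite calls were CG31999 (−0.50 in LP, 0.47 in HP, edgeR adjusted p = 0.0084 and 0.017) and the zyxin gene Zyx (0.22 and −0.31, adjusted p = 0.0051 and 0.00031). Zyx is named because of its values, outside the rule for named genes. The HP call of CG31999 was lost without HP diapause replicate 2 (0.36) or HP age-control replicate 2 (0.38) and with total counts (0.32), and its LP call without LP age-control replicate 1 (−0.38). With total counts the LP value of Zyx was −0.0056, so its direction in LP depends on the scaling. Zyx shares exon sequence positions with apolpp on the other strand.

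**Figure D3:**
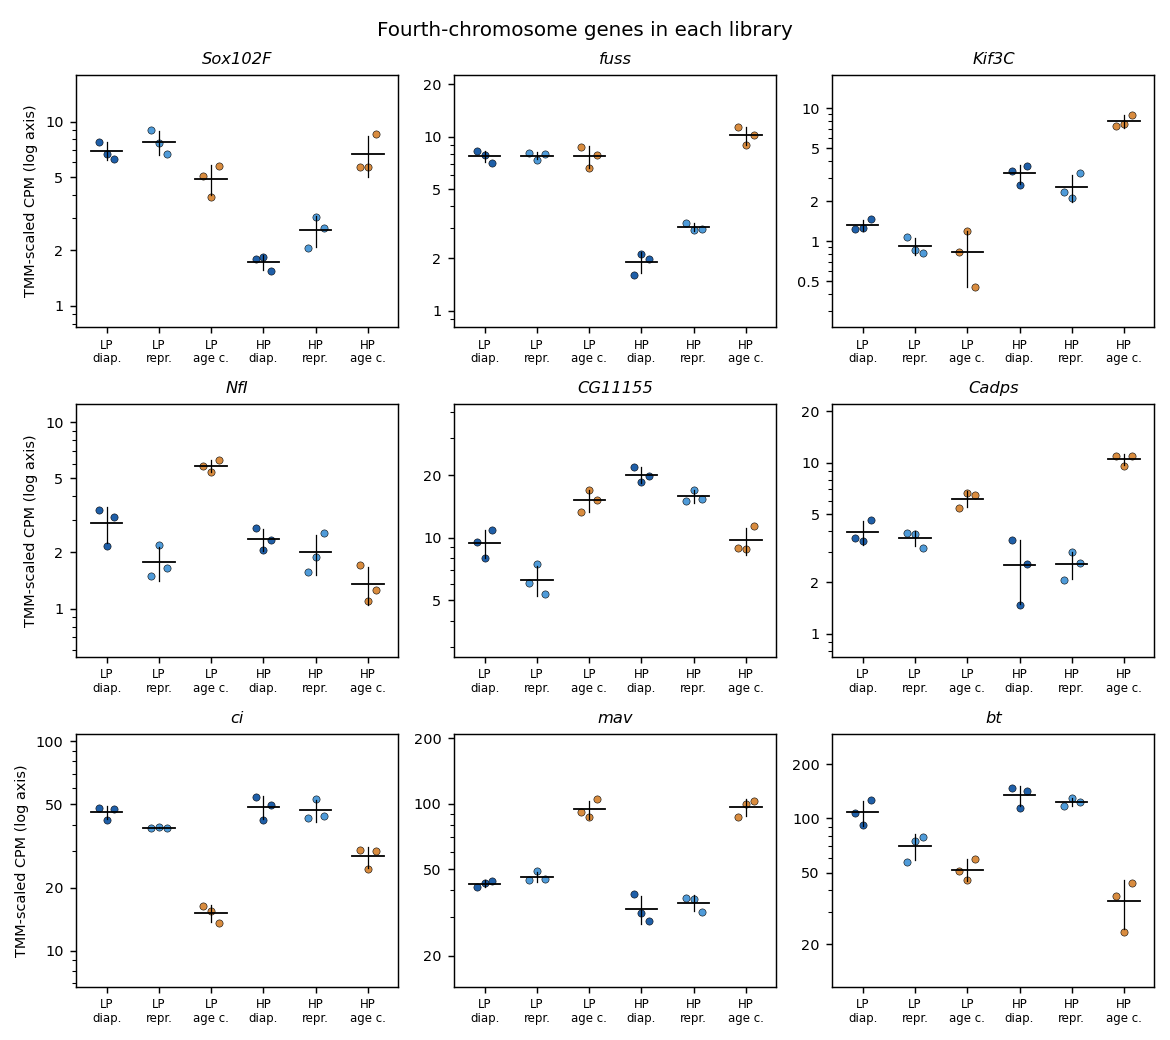
TMM-scaled CPM (log axis) of 9 chromosome 4 genes in each of the 18 libraries, LP groups left and HP groups right, in the order diapause, reproductive and age control; points are libraries, horizontal lines means and vertical lines SD (n = 3). The HP cold libraries of Sox102F and fuss lie below all others, the LP age controls of NfI lie above all others, and mav is low in all cold libraries of both lines.

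For Cadps, ci and pan the lines shared a direction and differed in size. The fall of Cadps was smaller in LP than in HP by 1.38 ± 0.31 in diapause (edgeR adjusted p = 0.0034). The rise of ci was larger in LP by 0.81 ± 0.15 (adjusted p = 0.00072), and that of pan by 0.72 ± 0.14 (adjusted p = 0.0012). For both genes the LP age controls were the low group: ci had 15.1 ± 1.48 CPM and pan 28.6 ± 3.83 CPM there, against 28.2 ± 3.24 CPM and 45.4 ± 5.55 CPM in HP age controls (mean ± SD, n = 3 each). The difference of CG1674 was −1.29 ± 0.29 (adjusted p = 0.0039), with 13.7, 14.9 and 17.3 CPM in LP diapause and 12.8, 12.2 and 15.5 CPM in LP age-control ovaries, and 19.1, 14.5 and 19.1 CPM in HP diapause and 7.67, 4.69 and 6.81 CPM in HP age-control ovaries.

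The antisense RNA asRNA:CR44029, which overlaps unc-13, rose in LP diapause (1.1 ± 0.18, edgeR adjusted p = 1.4e-05) and was not called in HP, with 17.5 ± 3.73 CPM in LP diapause and 8.14 ± 1.6 CPM in LP age-control ovaries, and 10.6 ± 0.70 CPM in HP diapause and 12.2 ± 1.94 CPM in HP age-control ovaries (mean ± SD, n = 3 each). The lines differed by 1.3 ± 0.25 (adjusted p = 0.0011). The difference of unc-13 itself was 0.38 (adjusted p = 0.023), a call lost without HP diapause replicate 2 (0.33), HP age-control replicate 3 (0.29), LP diapause replicate 3 (0.36) or LP age-control replicate 2 (0.35) and with total counts (0.30). Strand was not stated for the counting, so reads from the stretches that the 2 genes share cannot be told apart.

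The lines were also compared within each state. Of the 84 genes, 20 differed between LP and HP in diapause ovaries (15 higher in LP, 5 lower), where 32.6% of all tested genes differed (17.4% higher, 15.2% lower). In reproductive ovaries 23 differed (12 higher, 11 lower), where 35.1% did (18.4% higher, 16.7% lower), and in age controls 39 (19 higher, 20 lower), where 41.9% did (19.9% higher, 21.9% lower). These are 23.8%, 27.4% and 46.4% of the genes tested.

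In diapause ovaries fuss and Sox102F were higher in LP, by 2.02 ± 0.16 and 2.01 ± 0.22 on the log2 scale (edgeR adjusted p = 8.3e-09 and 7.6e-07). CG11155 was lower in LP by the same test (−1.09 ± 0.14, adjusted p = 5.2e-06). In age controls the LP level of NfI was higher (2.09 ± 0.25, adjusted p = 1.1e-06), and those of Kif3C (−3.27 ± 0.28, adjusted p = 1.1e-08), ci (−0.90 ± 0.11, adjusted p = 1.7e-06) and pan (−0.67 ± 0.10, adjusted p = 2e-05) were lower. Rad23, CG32017 and Pur-alpha were among the genes that differed in every state, as were Mitf, myo, CG11155 and lncRNA:CR46488. In diapause, reproductive and age-control ovaries the values were 0.21, 0.16 and 0.16 for Mitf and 0.18, 0.19 and 0.15 for myo. Some of these calls of Mitf and myo were lost when 1 library was left out. CG11155 was lower in LP in diapause and reproductive ovaries (−1.09 and −1.33) and higher in LP age controls (0.64). Rad23 was higher in LP diapause (0.32), reproductive (0.32) and age-control ovaries (0.20), with edgeR adjusted p = 0.00046, 0.00037 and 0.0096. The call in age controls was lost without LP age-control replicate 3 (0.13). CG32017 was higher in LP too (1.09, 1.31 and 1.15 in diapause, reproductive and age-control ovaries, adjusted p = 0.0021, 0.00025 and 0.00024). Pur-alpha was higher by 0.34, 0.31 and 0.21 in the same states (adjusted p = 0.00011, 0.00026 and 0.006). Sequence differences between each line and the genome used for counting were not checked and their part in these differences was not tested.

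**Figure D4:**
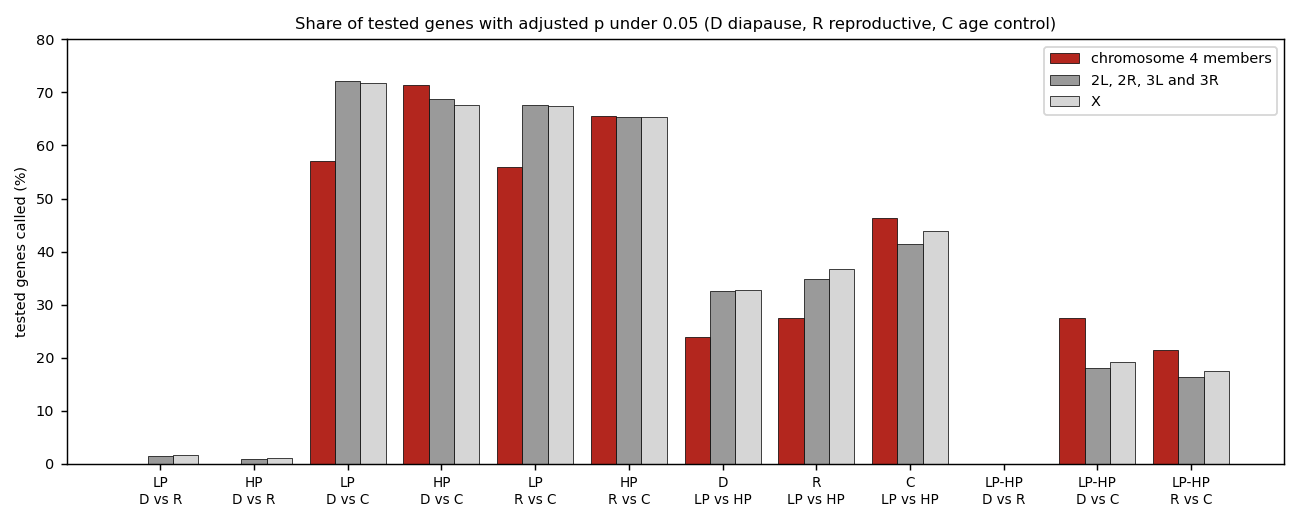
Percent of tested genes with adjusted p under 0.05 (bars) for the chromosome 4 genes (red), the other autosomes (dark grey) and X (light grey) in 12 comparisons, LP comparisons left of HP ones. The red bar is 0 in diapause against reproductive ovaries, and in the line differences against age controls it stands at 27.4% and 21.4%, against 18.1% and 16.4% for the other autosomes.

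The genes whose proteins bind or modify this chromosome lie elsewhere in the genome, and 9 were tested. None was called in diapause against reproductive ovaries of either line by edgeR. Against age controls, 7 fell and 1 rose in LP diapause, and 7 fell and 2 rose in HP diapause. The gene that rose in both lines was Su(var)3-9, named here because of its value. It averaged 39.1 CPM in LP diapause and 21.3 CPM in LP age-control ovaries. In HP the means were 37.6 CPM in diapause and 22.9 CPM in age-control ovaries. Every diapause library of Su(var)3-9 lay above every age control of its line. Of all tested genes 35.3% were called lower and 36.6% higher in LP, and 34.7% and 34.0% in HP. Pof had 27.5, 27.5 and 26.2 CPM in LP diapause ovaries, against 44.9, 45.8 and 49.1 CPM in LP age controls, and 25.7, 27.4 and 29.3 CPM in HP diapause ovaries, against 49.9, 46.8 and 52.3 CPM in HP age controls. The groups did not overlap (−0.78 ± 0.073 and −0.85 ± 0.073, edgeR adjusted p = 6e-09 and 3e-09).

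The methyltransferase gene egg had 43.4, 46.8 and 46.9 CPM in LP diapause and 76.4, 77.5 and 85.9 CPM in LP age-control ovaries, and 51.6, 45 and 45.2 CPM in HP diapause and 81.9, 75.5 and 87.8 CPM in HP age-control ovaries (−0.81 ± 0.072 and −0.79 ± 0.072, edgeR adjusted p = 3.5e-09 and 7.6e-09). Its partner gene wde fell as well (−0.53 and −0.81, adjusted p = 1.4e-06 and 5.5e-09). The HP1a gene averaged 246 ± 3.2 CPM in LP diapause and 249 ± 5.95 CPM in LP age-control ovaries, and 238 ± 4.88 CPM in HP diapause and 216 ± 16.8 CPM in HP age-control ovaries (mean ± SD, n = 3 each). Its libraries overlapped between the groups in both lines. It was called higher in HP diapause (0.14 ± 0.050, edgeR adjusted p = 0.017) and was not called in LP (−0.020, adjusted p = 0.73). The HP call was lost without HP diapause replicate 1 (0.13) or 2 (0.12), without HP age-control replicate 1 (0.084) or 3 (0.12), in the fit to the compared groups (0.15) and with no filter (0.14). With total counts its value was −0.0045, so its direction depends on the scaling. Of these 9 genes, the line difference of diapause against age control was called for 1, the HP1b gene (−0.40 ± 0.12, edgeR adjusted p = 0.019), named here because of its value. That call was lost without LP diapause replicate 3 (−0.36), LP age-control replicate 3 (−0.31), HP diapause replicate 1 (−0.35) or HP age-control replicate 1 (−0.36).

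**Figure D5:**
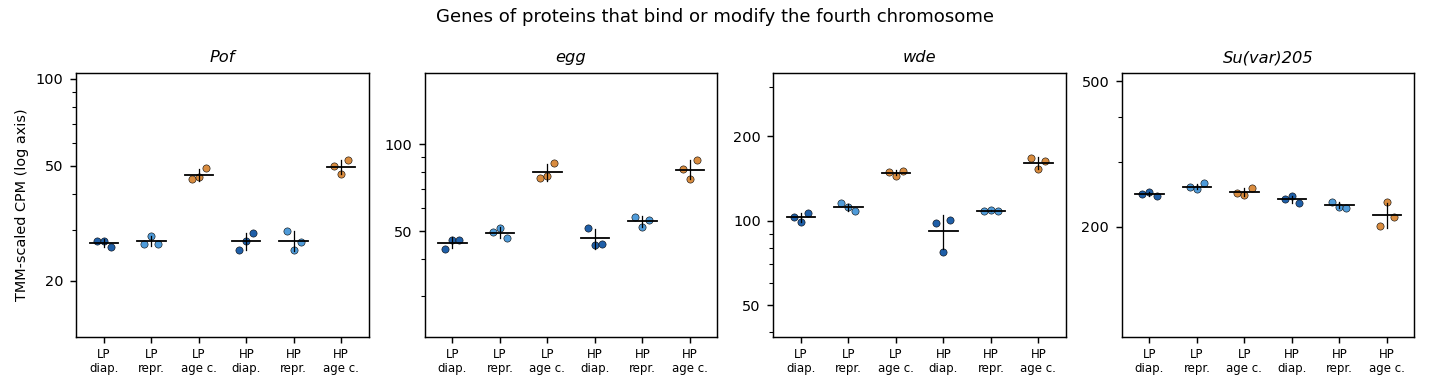
TMM-scaled CPM (log axis) of Pof, egg, wde and the HP1a gene in each library, LP groups left and HP groups right, with means (horizontal lines) and SD (vertical lines, n = 3). Pof, egg and wde are lower in all cold libraries than in the age controls of their line, and the HP1a gene, in the panel at the right, overlaps between groups, with HP diapause called higher than the HP age controls (0.14) but not with total counts (−0.0045).

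Neighbouring genes were also compared. Over the 83 pairs of tested neighbours, Pearson's r of their diapause over age-control log2 fold changes was 0.111 in LP and 0.0124 in HP, against 0.19 and 0.163 over the 7328 pairs on the other autosomes. Neighbours had the same sign in 45.8% of pairs in LP and 55.4% in HP, against 52.5% and 52.9%. In reproductive against age control r was 0.0936 in LP and 0.0856 in HP, against 0.152 and 0.145, and the sign was shared in 54.2% and 62.7% of pairs, against 52.7% and 52.9%. These are descriptions without a test.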

How the data were processed

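Ovary poly-A RNA was measured in 18 libraries (6 groups of 3). The authors deposited 1 table of raw read counts per gene, with no normalization. Trimmomatic, STAR, featureCounts and DESeq2 are named in the submitters' processing notes. No source used here gave their versions, the genome build or whether featureCounts used strand, and per the labels' protocols the library kit is directional. Start and end of all 108 fourth-chromosome genes equal those of the BDGP6.54 annotation, from which strand and biotype were taken.

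From the counts, edgeR 4.0.16 (R 4.3.3, limma 3.58.1) was run on all 18 libraries with TMM scaling, filterByExpr and 1 mean per group (robust quasi-likelihood test, 12 residual degrees of freedom). Benjamini-Hochberg adjustment ran over the 9037 genes that passed, and adjusted p under 0.05 was called. Standard errors are the log2 fold change over the square root of F. The p-values set each difference against a spread between libraries that the fit estimated over all groups together. DESeq2 1.42.0, total counts as scaling, no filter, a fit to the compared groups, a replicate block, genes without exon overlap and leaving out each library were alternatives. The procedure was tested on simulated data for HP diapause against HP reproductive ovaries. It recovered 71 of 96 genes changed 2-fold (74.0%) and 45 of 99 changed 1.3-fold (45.5%), with 11 false calls. Changes of these sizes can therefore be missed. No 2 libraries of a group held the same counts.

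The genes and lists were chosen with earlier results of these data known. Named genes are, per comparison within a line, the 10 called with the largest rise and the 10 with the largest fall at 5 CPM or more in the higher group (6 and 6 between lines), plus a list of genes given whether called or not, and others are stated as chosen after their values were seen. RpS3A, eIF4G1, pho and ATPsynbeta were left out by the rule. The lists by role and the cell-type markers are described without a test. Also, 1 gene of the transport list is not reported here.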

Additional observations from a re-analysis of the deposited data

Results flagged for a closer look

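The effect of a state against the age controls differed between LP and HP, by the interaction term of the edgeR fit, for the genes below. Values are differences of log2 fold changes (LP minus HP), and the size, error and adjusted p of the larger ones stand in the report. With 3 libraries a group, no outlier test was run on single libraries. The weight of each library was followed only by fits that left it out.

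In diapause against age control the difference was positive for Sox102F (2.45), fuss (2.41), Kif3C (1.98), Cadps (1.38), asRNA:CR44029 (1.3), ci (0.81) and pan (0.72), and negative for NfI (−1.81), CG11155 (−1.73), CG1674 (−1.29) and CG31999 (−0.96). None of these 11 calls was lost in the 12 fits that each left out 1 library. Calls that were lost in part of those fits were bt (−0.90, lost in 8 of 12), CG33521 (−0.87, lost in 10), mav (0.42, lost in 8), unc-13 (0.38, lost in 4), Crk (−0.27, lost in 7), CaMKII (0.22, lost in 8) and, among the heterochromatin regulators, HP1b (−0.40, lost in 4). The calls of CaMKII, mav and unc-13 were also lost with total counts.

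In reproductive against age control, which uses the same age-control libraries, the difference was positive for Sox102F (2.02), Kif3C (1.80), fuss (1.76), Cadps (1.27) and ci (0.63), and negative for NfI (−2.26), CG11155 (−1.97), CG1674 (−1.40) and bt (−1.40), with no call lost in the 12 fits. Those of asRNA:CR44029 (0.80, lost in 8 of 12), CG31999 (−0.79, lost in 4), pan (0.48, lost in 5) and mav (0.43, lost in 6) were lost in part of them. The marker shares that also differed between the lines in the age controls stand in the report beside these differences.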

How the results depend on the processing

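Against age controls and between lines, the counts of genes called stayed within 1.5 times the value reported under total counts, no filter, a fit to the compared groups, DESeq2, leaving out the 3 libraries that stood apart (an alternative chosen after seeing the data) and leaving out each library. Restricted to genes without exon overlap they were 31 in LP and 39 in HP for diapause against age control, 29 for LP reproductive against age control, 13, 14 and 24 for LP against HP in diapause, reproductive and age-control ovaries, and 14 for the line difference in diapause against age control; this setting holds fewer genes by construction. Diapause against reproductive was the exception, with 0 genes called in either line. In LP it gave 1 in the fit to the compared groups (3.45% of all genes called), 2 with DESeq2 (5.29%), 8 without the 3 libraries (9.23%) and 0 to 3 leaving out 1 library. In HP it gave 1 with total counts (1.28%), 5 in the fit to the compared groups (8.04%), 2 with DESeq2 (4.31%), 6 without the 3 libraries (7.21%) and 0 to 0 leaving out 1 library. The cause was not tested.

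Total counts in place of TMM moved the median log2 fold change of all genes by −0.23 (LP) and −0.14 (HP) in diapause against age control and by −0.19 and −0.11 in reproductive against age control. Over 236 gene values, 18 calls were lost and 1 was gained with total counts, 16 were lost with no filter, 11 lost and 4 gained in the fit to the compared groups, and 2 lost and 4 gained with DESeq2. The direction turned for Zyx in LP diapause against age control (−0.0056) and the HP1a gene in HP diapause against age control (−0.0045) with total counts, and for apolpp in LP diapause against age control without LP diapause replicate 1 (0.023, and −2.45 without replicate 2). As a share of autosomal counts the set held 0.767%, 0.786% and 0.953% in LP diapause, reproductive and age-control libraries and 0.726%, 0.788% and 0.908% in HP, and without gw 0.551%, 0.561% and 0.677% in LP and 0.524%, 0.563% and 0.651% in HP.

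Replicate numbers did not pair the libraries: of 18 same-numbered pairs within a line, 2 had a correlation of deviations over 0.1, and 5 of 18 libraries correlated best with their own number. With the replicate block, 0 genes were called in diapause against reproductive in both lines, 47 (LP) and 59 (HP) in diapause against age control, 49 and 55 in reproductive against age control, 19, 23 and 40 for LP against HP in diapause, reproductive and age-control ovaries, and 0, 23 and 19 for the line differences. The block ended 2 calls among the 236 values and changed no other, those of zfh2 between LP and HP reproductive ovaries (−0.93) and of Kif3C in LP diapause against age control (0.68). Genes under 5 CPM in all groups, 26 of the 84 tested, rest on few reads, and a change there may not be detectable at this depth.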

Other observations

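Several genes of the set near the detection limit differed between groups. They were chosen after their values were seen and lie under 5 CPM. The pseudogene CR32010 had no count in 7 of the 9 LP libraries and had 0.598, 1.03 and 0.627 CPM in HP diapause, 0.599, 0.194 and 0.355 CPM in HP reproductive and 0, 0.0919 and 0 CPM in HP age-control ovaries. The gene yellow-h, of the yellow family, had 1.8, 2.15 and 1.07 CPM in LP age controls, against 0.143, 0.0919 and 0.373 CPM in HP age controls. The forkhead gene fd102C had 0.104, 0.109 and 0.122 CPM in LP diapause and 0.921, 0.733 and 0.909 CPM in LP age-control ovaries, while sv, the fly Pax2 gene, had 0.598, 0.515 and 0.285 CPM in HP diapause and 0.0477, 0.0459 and 0.0933 CPM in HP age-control ovaries.

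The long non-coding RNA lncRNA:CR46488 was lower in LP in each state. It had 2.8, 2.13 and 2.87 CPM in LP diapause, against 5.56, 4.86 and 4.84 CPM in HP diapause, and 2.39, 2.25 and 2.65 CPM in LP age controls, against 5.43, 8.68 and 5.6 CPM in HP age controls. LP and HP libraries did not overlap in these states, and the log2 differences were −0.97, −1.35 and −1.43 in diapause, reproductive and age-control ovaries (edgeR adjusted p = 0.0047, 0.00052 and 6.4e-05).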
